A study of Mus musculus with 6 samples.

Results

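Nuclear receptors are transcription factors that, for the most part, bind a small lipophilic ligand and then recruit coactivators or corepressors to their target genes. In liver they read the supply of fatty acids, oxysterols, bile acids, hormones and foreign compounds, and many of them bind DNA as heterodimers with a retinoid X receptor. PPARA, the fatty acid sensor of this superfamily, is known for inducing fatty acid oxidation and ketone body synthesis in the fasted liver. This account covers 44 genes of the superfamily, taken by their gene symbol from the bead array tables of fasted mouse liver. Of these, 43 had a probe, with 84 probes among the 45281 on an array, and Nr2f1 is not analysed here. Ppara had 1 probe, and 24 of the receptors had more than 1.

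The livers came from male C57BL/6 mice fed normal chow, 3 with a Creb3l3 knockout (KO) and 3 wild-type (WT) littermates, each fasted for 24 h and each measured on its own Illumina WG-6 array. Creb3l3 encodes CREBH, a basic leucine zipper factor of hepatocytes that sits in the endoplasmic reticulum and is freed by proteolysis. The labels do not say how the gene was disrupted, nor the age of the mice, and no fed mice are among the samples, so no value here shows a response to fasting. The comparison was KO against WT livers, and it asks how receptor transcripts of the fasted liver differ when CREBH is missing. Signals are given as deposited, in arbitrary units and without background subtraction, and log2 changes come from normalized values and are KO minus WT.

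The arrays were unequal. A detection p under 0.05, which compares a probe with the negative control beads of its own array, was reached by 11846, 15867 and 4302 probes on KO arrays 1, 2 and 3 and by 16224, 15832 and 15504 on WT arrays 1, 2 and 3. The array of KO replicate 3 correlated with the others at 0.738 to 0.752 on the log2 scale, while the other 5 arrays correlated at 0.966 to 0.992. Tests therefore used KO replicates 1 and 2 and WT replicates 1 to 3, and values with all 6 arrays, where no probe passed the test, stand beside the called genes. The Creb3l3 probe had a signal of 148, 283.5 and 87.9 in KO and 1201, 949 and 929 in WT, a log2 change of -2.32 ± 0.15 (SE) with an adjusted p of 0.00271, and -2.72 ± 0.39 (SE) with an adjusted p of 0.574 over all 6 arrays. Of 7 hepatocyte markers with a probe, 6 to 7 were detected on every array but that of KO replicate 3, which had 5. No probe of 10 marker lists of liver and neighbouring cell types was called between the genotypes. The 12 tested probes of erythroid genes came from 3 genes and were all below 0, beside 54.7% of all tested probes. Their summed normalized level was 37177 to 93644 in KO replicates 1 and 2 and 86980 to 103630 in WT. Of 11 Kupffer cell and macrophage probes from 7 genes, 10 were above 0, beside 6505 of all 14345 tested probes. Their summed level was 1559 to 1724 in KO and 1385 to 1555 in WT. Both of the 2 tested neutrophil probes were above 0, and that list summed to 204 to 349 in KO and 200 to 209 in WT. Of 2 lymphocyte probes, 1 was above 0 and 1 below, and that list summed to 157 to 225 in KO and 147 to 158 in WT. The part of these cell types in the results below was not tested. In bulk liver, fewer cells of a type and less RNA per cell cannot be told apart.

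The lipid, bile acid and xenobiotic sensors were detected in the fasted WT liver, and the main hepatic thyroid hormone receptor, the vitamin D receptor and the Nr4a family were not seen on all WT arrays. On all 3 WT arrays, 25 of 43 receptor genes (58.1%) were detected by at least 1 probe, against 31.1% of all gene symbols on the array. By probe the figures were 34 of 84 (40.5%), against 28.9% of all probes. A further 6 genes were detected on some WT arrays and 12 on none. Of the 34 probes, 26 were also detected on the array of KO replicate 1, 33 on that of KO replicate 2 and 9 on that of KO replicate 3. Detection says that a probe stood above the control beads, and a probe that did not may still report a transcript below that level.

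**Figure D1:**
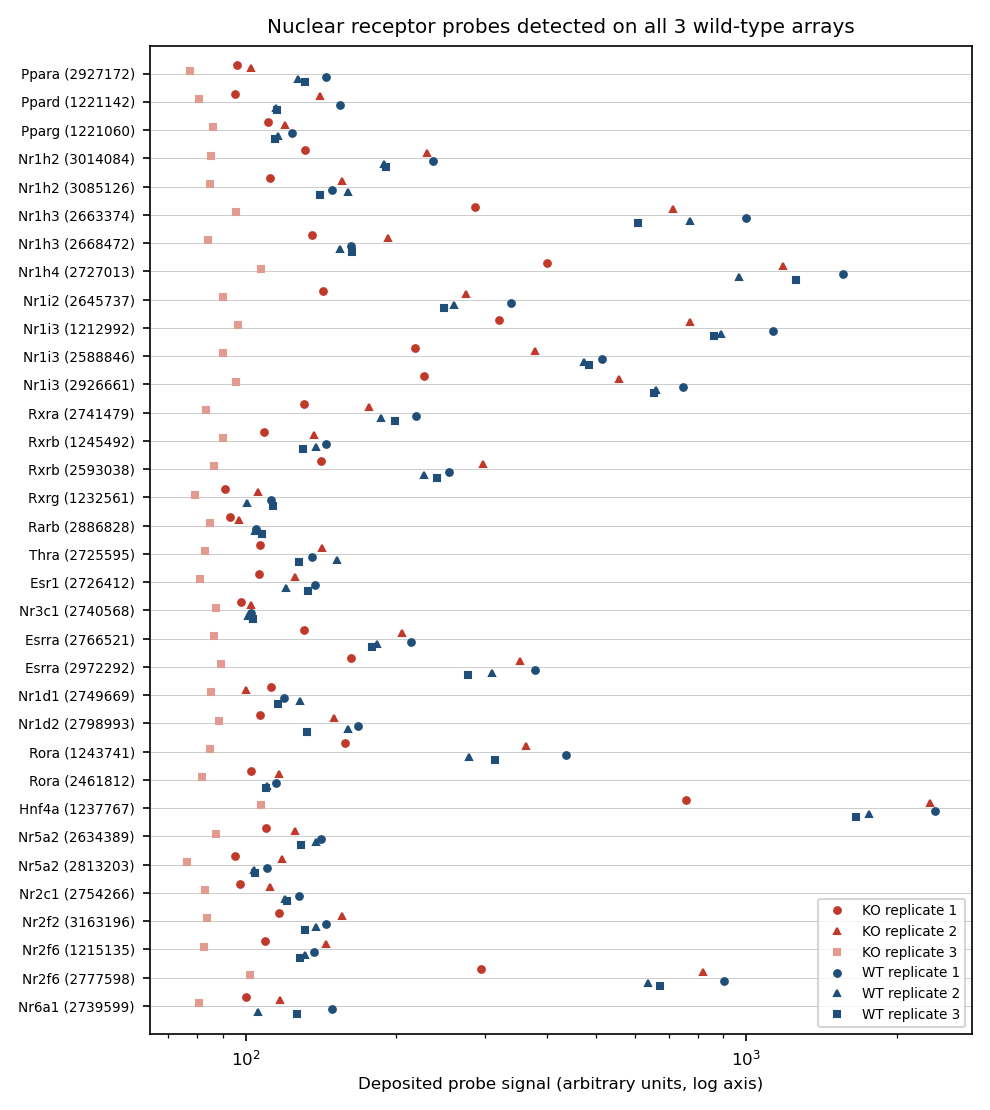
Deposited signal in arbitrary units (log axis) of the 34 receptor probes detected on all 3 WT arrays, 1 row per probe, with KO arrays in red and WT arrays in blue and the last digits of the probe name in brackets. The pale squares of KO replicate 3 lie at the left of nearly every row, and Ppara is among the rows in which both other KO arrays lie left of all 3 WT arrays.

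By role, 8 of 9 lipid and xenobiotic sensors and 4 of 10 receptors for steroids, vitamins and thyroid hormone were detected on all WT arrays, a difference that was not tested. Of 7 lipid sensors, 6 were detected on all WT arrays: the 3 PPARs, both LXRs (Nr1h2 and Nr1h3) and the bile acid receptor FXR (Nr1h4). The remaining lipid sensor, FXR-beta (Nr1h5), was detected on some WT arrays. Both xenobiotic sensors, PXR (Nr1i2) and CAR (Nr1i3), the 3 retinoid X receptors and the 3 clock receptors (Nr1d1, Nr1d2 and Rora) were detected on all 3. Of 6 receptors for vitamins and thyroid hormone, Rarb and Thra were detected on all WT arrays, Rarg on some, and Rara, Thrb and the vitamin D receptor Vdr on none. Thrb encodes the main thyroid hormone receptor of hepatocytes, and its single probe had a signal of 94.9, 88.4 and 83.8 in KO and 97.7, 93.7 and 95.7 in WT. Among 4 steroid receptors, the estrogen receptor Esr1 and the glucocorticoid receptor Nr3c1 were detected on all WT arrays, and the progesterone receptor Pgr and the mineralocorticoid receptor Nr3c2 on none.

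The estrogen-related receptors, which drive mitochondrial genes, split into Esrra, detected on all WT arrays, Esrrb, detected on some, and Esrrg, detected on none. Of 10 constitutive liver and orphan receptors with a probe, 6 were detected on all WT arrays: Hnf4a, Nr5a2, Nr2c1, Nr2f2, Nr2f6 and Nr6a1. Nr2c2 was detected on some, and Hnf4g, Nr5a1 and Nr2e3 on none. None of the 3 immediate-early receptors of the Nr4a family was detected on all WT arrays. Nr4a3 was detected on some, and Nr4a1 and Nr4a2 on none. The receptors that lack a DNA-binding domain were also at the edge of detection, with Nr0b2 (SHP, the repressor induced by FXR) detected on some WT arrays and Nr0b1 on none. The SHP probe had a signal of 98.3, 90.8 and 83.4 in KO and 89.1, 90.3 and 96.5 in WT, so neither genotype stood clear of the array medians, which were 95.02, 93.7 and 83.7 in KO and 94.3, 92.1 and 91.5 in WT.

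Ppara was lower in KO liver than in WT liver, and it was the sole receptor whose change passed the test. Of the 38 receptor probes tested, from 27 genes, 1 was called lower (2.63%), against 0.279% of 14345 tested probes, and 0 were called higher, against 0.0627%. At an unadjusted p under 0.05, 4 receptor probes were lower (10.5%), against 7.47% of all tested probes, and 1 was higher (2.63%), against 4.66%. Of the 4, Rarb passed the filter through WT alone, so its place among them supports nothing. The unadjusted counts of receptors were thus near those of the array as a whole in both directions. With all 6 arrays, limma called 0 of 14494 tested probes in either direction, a background of 0%, and 0 of 38 receptor probes. At an unadjusted p under 0.05, 2 receptor probes (5.26%) were then lower, against 3.30% of all.

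The Ppara probe had a signal of 96.0, 103 and 77.5 in KO livers, against 144, 127 and 131 in WT livers. KO replicates 1 and 2 lay below all 3 WT livers. KO replicate 3 did too, on an array that was low at nearly every receptor probe. Above the median signal of the same array, the probe stood by 0.982, 9.02 and -6.24 units in KO and by 50.02, 34.9 and 39.8 units in WT. It was detected on the arrays of all 3 WT livers and, in KO, on that of replicate 2 alone, where its detection p was 0.00748. The detection p was 0.25 in KO replicate 1 and 0.942 in KO replicate 3. The Ppara signal in KO was therefore at or close to background.

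On the normalized log2 scale Ppara reached 4.42 and 4.72 in KO replicates 1 and 2, against 5.85, 5.74 and 5.85 in WT. The group means were 4.57 ± 0.21 in KO (SD, n = 2) and 5.81 ± 0.06 in WT (SD, n = 3). The change was -1.24 ± 0.17 (SE), with a 95% interval of -1.63 to -0.86 and an adjusted p of 0.0345 in limma. Since the probe was detected on 1 of these 2 KO arrays, the size of this change rests in part on a signal that did not stand above background. Each KO array taken alone showed it, at -1.39 for replicate 1 and -1.09 for replicate 2 against the WT mean. By p-value the probe ranked at 31 among all tested probes. With all 6 arrays the change was -1.25 ± 0.22 (SE), with an unadjusted p of 0.001 and an adjusted p of 0.653. Without background correction it was -0.42 and its adjusted p 0.0675, and the deposited signal of KO replicate 2 was 0.765 of the WT mean.

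The direction of Ppara was the same under all 19 alternative ways of processing the arrays, and the call held under 5 of them. The log2 change ranged from -1.32 to -0.37 and the adjusted p from 3.05e-04 to 0.776. Leaving out any WT array ended the call, with an adjusted p of 0.191 without WT replicate 1, 0.150 without WT replicate 2 and 0.207 without WT replicate 3. Without KO replicate 1 the adjusted p was 0.0505, and without KO replicate 2 it was 0.00669. In that last fit KO replicate 1 was the single KO array, assumed to vary like the WT arrays.

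**Figure D2:**
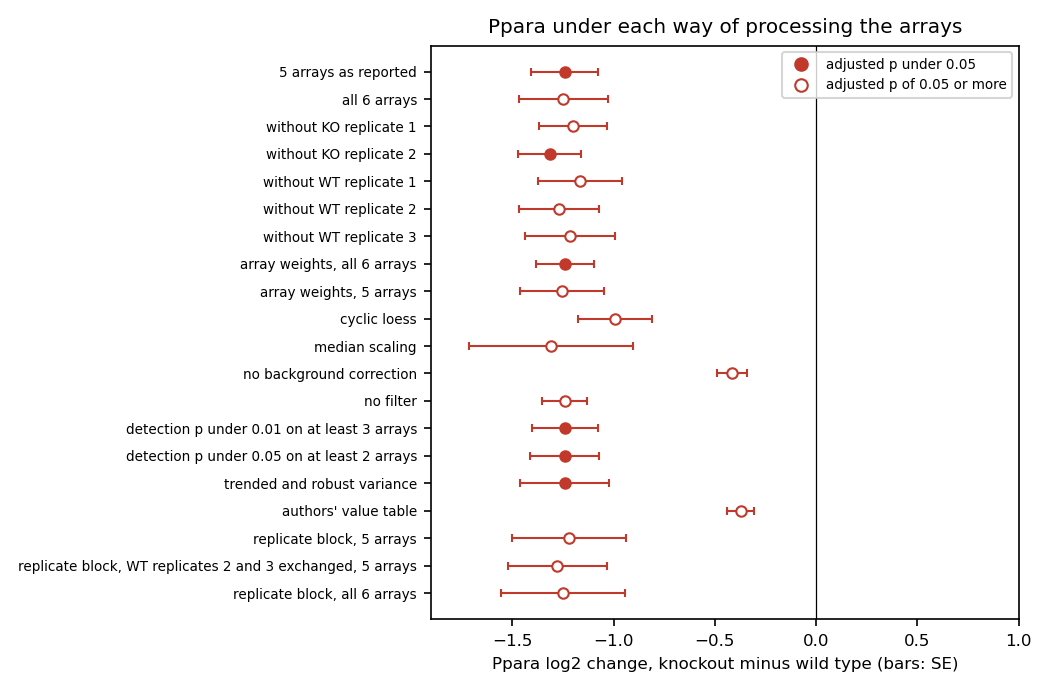
Log2 change of the Ppara probe, KO minus WT, under the reported fit and 19 alternatives, 1 row each, with bars for the standard error, filled points for an adjusted p under 0.05 and open points otherwise. Every point lies left of 0, and the points nearest to 0 are those without background correction and from the authors' own normalized table, at -0.42 and -0.37.

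The other PPARs did not pass the test. Ppard, the most widely expressed PPAR, had a signal of 95.2, 141 and 80.8 in KO and 154, 115 and 116 in WT, and KO replicate 2 lay within the WT range. Its log2 change was -0.52 ± 0.39 (SE). Pparg, the adipogenic PPAR, had 111, 119.8 and 86.2 in KO and 124, 116 and 114 in WT, with overlapping groups and a log2 change of 0.23 ± 0.22 (SE). Adipocyte markers had no probe that passed the filter, and 2, 0 and 1 of their genes were detected on KO arrays 1, 2 and 3 and 0 on any WT array. The 95% interval of Ppard ran from -1.41 to 0.37, so a change as large as that of Ppara cannot be told apart from none in these arrays.

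The LXRs sense oxysterols and drive lipogenesis and cholesterol efflux. For LXR-alpha, Nr1h3, the brighter probe had a signal of 287, 714 and 95.6 in KO and 1000.0, 770.2 and 606 in WT, with a log2 change of -0.20 ± 0.19 (SE). The dimmer Nr1h3 probe had 136, 192 and 83.9 in KO and 162, 154 and 163 in WT. After normalization its KO values, 7.10 and 6.55, lay above its WT values of 6.14, 6.35 and 6.47, with a log2 change of 0.51 ± 0.21 (SE), an unadjusted p of 0.041 and an adjusted p of 0.398. The pair of Nr1h3 probes thus differed in sign, and the one with the higher KO values was the only receptor probe higher at an unadjusted p under 0.05. LXR-beta, Nr1h2, had 131, 230.4 and 85.3 in KO and 237, 188 and 191 in WT at its brighter probe, a log2 change of 0.05 ± 0.15 (SE), and -0.11 ± 0.19 (SE) at its other tested probe. FXR, Nr1h4, had 399, 1186 and 107 in KO and 1557, 966 and 1255 in WT, with KO replicate 2 inside the WT range and a log2 change of -0.21 ± 0.18 (SE). Nr1h5, which in the mouse encodes a lanosterol-responsive FXR, had a log2 change of -0.14 ± 0.20 (SE) at a probe detected on 2 WT arrays.

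CAR, a xenobiotic sensor that induces cytochromes P450 and is itself known to rise with fasting in mouse liver, was lower in KO at 2 of its tested probes without passing the test. The probe with the highest mean signal, ILMN_1212992, had 321, 772 and 96.6 in KO and 1130.2, 889 and 863 in WT, a log2 change of -0.35 ± 0.17 (SE) and an adjusted p of 0.454. Probe ILMN_2926661 had 227, 556 and 95.8 in KO and 747, 659 and 652 in WT, a log2 change of -0.45 ± 0.16 (SE), an unadjusted p of 0.022 and an adjusted p of 0.357. In both, each of KO replicates 1 and 2 lay below every WT array, as deposited and after normalization. Probe ILMN_2588846 had a log2 change of -0.29 ± 0.23 (SE) and probe ILMN_2481771, detected on 2 WT arrays, of 0.11 ± 0.23 (SE), so the tested CAR probes did not all share a sign. PXR, Nr1i2, had 143, 276 and 90.1 in KO and 338, 261 and 249 in WT. Its normalized KO values of 7.32 and 7.30 lay below its WT values of 7.66, 7.54 and 7.44, and its log2 change was -0.24 ± 0.16 (SE).

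The retinoid X receptors, the shared partners of the sensors above, did not pass the test. Rxra, the main hepatic form, had 131, 177 and 83.2 in KO and 218, 186 and 199 in WT, and had a log2 change of -0.22 ± 0.21 (SE). Its normalized KO value was 6.94 in replicate 1 and 6.34 in replicate 2, so it was inside the WT range of 6.80 to 6.96 in the first of these livers and below it in the other. Rxrb had 141, 298 and 86.3 in KO and 254, 227 and 241 in WT at its brighter probe, with 0.12 ± 0.16 (SE), and -0.14 ± 0.16 (SE) at the other tested probe. Rxrg, a form better known from muscle and brain, had 90.7, 106 and 79.3 in KO and 112, 100.5 and 113 in WT and had a log2 change of -0.51 ± 0.24 (SE).

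Among the receptors for retinoic acid and thyroid hormone, Rarb did not pass the test. Rarb, a retinoic acid receptor and itself a retinoid target gene, had 93.1, 96.8 and 84.9 in KO and 105, 104 and 108 in WT, with KO replicates 1 and 2 below all WT livers. It was detected on all 3 WT arrays and on no KO array, so it passed the filter through WT alone and its KO level has only an upper bound, which puts it at least 1.15-fold lower in KO. Its adjusted p was 0.313, and a probe that passed in this way had to differ. The thyroid hormone receptor Thra had 107, 142 and 82.8 in KO and 136, 152 and 128 in WT and had a log2 change of -0.19 ± 0.22 (SE). Rara showed the reverse pattern of detection and was not tested. Its signal was 106, 104 and 89.6 in KO and 96.2, 88.6 and 91.7 in WT, and it was detected on the arrays of KO replicates 1 and 2 and on no WT array.

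Steroid receptors and estrogen-related receptors showed small differences with overlapping groups after normalization. Esr1 had 106, 126 and 81.0 in KO and 137, 121 and 133 in WT and had a log2 change of -0.22 ± 0.17 (SE). The glucocorticoid receptor Nr3c1, through which fasting corticosterone acts on gluconeogenesis, had 97.9, 102 and 87.0 in KO and 102, 101 and 103 in WT and had a log2 change of -0.18 ± 0.16 (SE). That probe was near background in both genotypes. Esrra had 162, 353 and 89.1 in KO and 378, 310.4 and 278 in WT at its brighter probe and had a log2 change of -0.02 ± 0.16 (SE), and of 0.07 ± 0.16 (SE) at the other. Esrrb had a log2 change of 0.07 ± 0.23 (SE) at a probe detected on 2 WT arrays.

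The clock receptors Nr1d1 and Nr1d2 repress, and Rora activates, the same elements in clock and lipid genes. Nr1d1 (REV-ERB-alpha) had 112, 100.2 and 85.1 in KO and 119, 129 and 116 in WT. Its normalized values of 6.04 and 4.62 in KO lay on either side of the WT values of 5.25, 5.79 and 5.42, and its log2 change of -0.15 ± 0.38 (SE) had a 95% interval of -1.03 to 0.72. Nr1d2 had 107, 150.3 and 88.4 in KO and 168, 160.1 and 132 in WT and had a log2 change of -0.39 ± 0.21 (SE). Rora had 158, 364 and 84.7 in KO and 435, 279 and 314 in WT at its brighter probe and had a log2 change of -0.12 ± 0.18 (SE), and of -0.02 ± 0.15 (SE) at the other. The labels do not give the hour at which livers were taken, so a difference in clock phase between mice was not tested.

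Hnf4a, a constitutive receptor known as a hepatocyte identity factor, did not pass the test. Its signal was 756, 2332 and 107 in KO and 2377, 1756 and 1658 in WT. The normalized levels of 10.86 and 10.83 in KO lay above those of 10.77, 10.65 and 10.59 in WT, with a log2 change of 0.17 ± 0.16 (SE) and a 95% interval inside -1 to 1. Nr5a2 (LRH-1, a regulator of bile acid synthesis) had 109.5, 125 and 87.1 in KO and 142, 138 and 129 in WT at its brightest tested probe, with -0.22 ± 0.19 (SE), and -0.16 ± 0.25 and 0.44 ± 0.30 (SE) at the others, which differ in sign. Nr2f2 (COUP-TFII) had 116, 155 and 83.6 in KO and 145, 138 and 131 in WT and had a log2 change of 0.27 ± 0.17 (SE), with normalized KO values above all WT values. Nr2f6 had 295, 818 and 102 in KO and 902, 635 and 673 in WT at its brighter probe and had a log2 change of 0.05 ± 0.16 and 0.08 ± 0.15 (SE) at its 2 probes.

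The testicular receptor Nr2c1 (TR2), an orphan receptor that binds direct repeats in DNA, was next to Ppara in p-value. It had 97.4, 112 and 82.7 in KO and 128, 119.7 and 121 in WT, with KO replicates 1 and 2 below all WT livers. The normalized values were 4.51 and 5.04 in KO and 5.49, 5.54 and 5.57 in WT. The log2 change was -0.75 ± 0.19 (SE), with an unadjusted p of 0.0046 and an adjusted p of 0.230, and it was detected on 1 of the 2 KO arrays tested. Nr6a1, the germ cell nuclear factor, had 99.98, 117 and 80.6 in KO and 148, 106 and 127 in WT and had a log2 change of -0.57 ± 0.28 (SE), with KO replicate 2 inside the WT range.

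**Figure D3:**
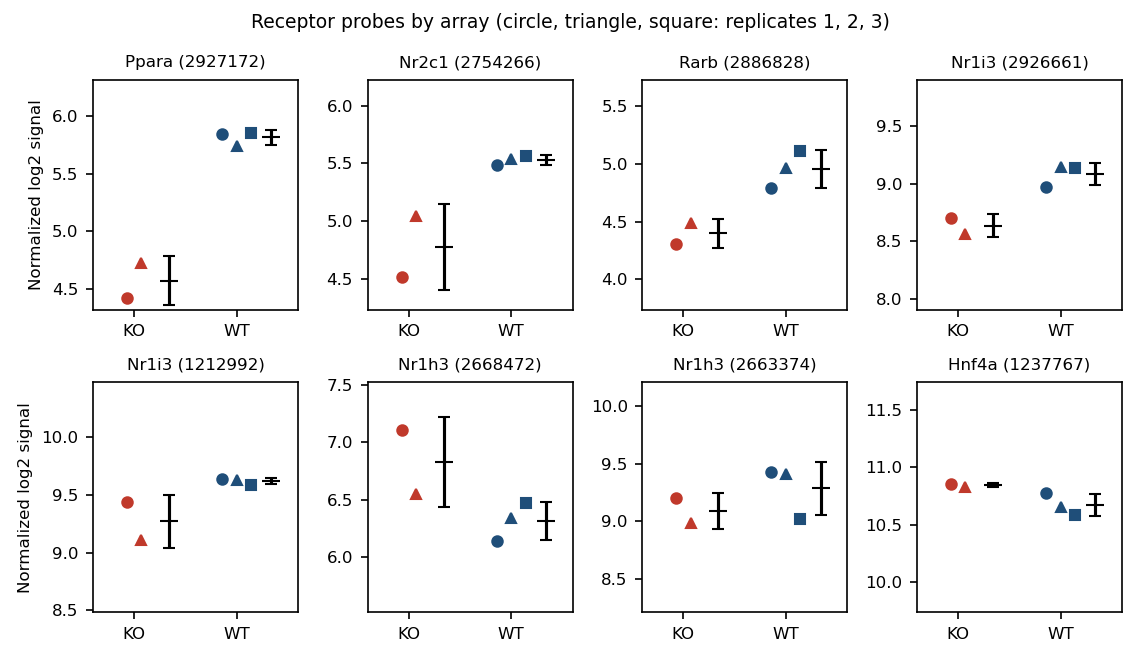
Normalized log2 signal of 8 receptor probes in each array used in the tests, with KO left (red) and WT right (blue), symbols for replicates 1, 2 and 3, and the mean ± SD of each group beside the points. Ppara has the widest gap between the genotypes, at 4.42 and 4.72 in KO and 5.85, 5.74 and 5.85 in WT, and the Nr1h3 probes differ in direction.

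The stretches of 250 bases before the annotated start are shown for the 4 receptor genes with a probe that was lower in KO at an unadjusted p under 0.05, since CREBH belongs to a class of factors known to bind elements with the core TGACG. They were read from RefSeq promoters of GRCm38.p6, which held 60 promoters of 40 of the receptor genes, and capitals mark a motif found in the window. TGACG lay at -222 to -218 in Ppara (chr15:85735526-85735775, plus strand) and, as CGTCA on the given strand, at -25 to -21 in Nr2c1 (chr10:94147681-94147930, plus strand), counted back from the start. In Rarb (chr14:16575477-16575726, minus strand) capitals mark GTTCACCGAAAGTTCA at -52 to -37, the retinoic acid response element for which this promoter is known. Nr1i3 (chr1:171213720-171213969, plus strand) held none of the motifs searched.
Ppara: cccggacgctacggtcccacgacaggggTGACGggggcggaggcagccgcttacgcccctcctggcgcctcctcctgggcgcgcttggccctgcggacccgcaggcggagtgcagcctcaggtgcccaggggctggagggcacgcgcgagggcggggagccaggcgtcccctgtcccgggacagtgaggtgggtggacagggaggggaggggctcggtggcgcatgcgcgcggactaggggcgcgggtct
Nr2c1: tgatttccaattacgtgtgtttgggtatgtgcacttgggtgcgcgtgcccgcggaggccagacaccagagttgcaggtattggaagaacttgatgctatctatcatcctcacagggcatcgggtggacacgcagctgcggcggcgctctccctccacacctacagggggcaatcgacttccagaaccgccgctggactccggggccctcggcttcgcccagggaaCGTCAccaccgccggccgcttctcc
Rarb: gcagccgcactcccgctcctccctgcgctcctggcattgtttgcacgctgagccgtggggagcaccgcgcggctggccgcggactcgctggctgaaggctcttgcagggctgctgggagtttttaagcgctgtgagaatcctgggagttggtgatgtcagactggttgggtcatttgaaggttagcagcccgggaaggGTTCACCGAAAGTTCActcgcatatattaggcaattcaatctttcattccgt
Nr1i3: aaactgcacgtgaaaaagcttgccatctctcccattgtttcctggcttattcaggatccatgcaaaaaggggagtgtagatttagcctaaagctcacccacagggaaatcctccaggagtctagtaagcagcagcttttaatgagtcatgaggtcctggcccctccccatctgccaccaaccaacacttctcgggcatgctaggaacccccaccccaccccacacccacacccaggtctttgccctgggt

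These matches describe the windows and say nothing of binding. On both strands, TGACG was in 11 of the 60 receptor promoters (18.3%), against 17.8% of 32851 RefSeq promoter windows of the same length. The full cyclic AMP response element TGACGTCA, which contains TGACG, was in 0 of 60, against 1.55%. AGGTCA, the core that nuclear receptors themselves bind, was in 11 of 60 (18.3%), against 14% of all. A direct repeat of AGGTCA with 1 base between the copies, the arrangement known for PPARs with a retinoid X receptor, was in 0 of 60, against 0.0335%. GTTCA followed by any 6 bases and GTTCA again, the arrangement of the retinoid element above, was in the Rarb window alone among the 60 (1.67%), against 0.067% of all. Since the pattern is that of the known Rarb element, this match was fixed in advance and these shares support nothing.

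Over the 38 tested receptor probes the median log2 change was -0.16, beside -0.03 for all tested probes, and 26 of 38 lay below 0 (68.4%), beside 54.7% of all. KO replicate 1 alone was below the WT mean at 24 of 38 probes (63.2%, beside 57.7% of all) and KO replicate 2 alone at 26 (68.4%, beside 47.7%). These shares describe the probes that passed the filter and were not tested. By role, 6 of 9 lipid sensor probes, 4 of 5 xenobiotic sensor probes, 3 of 4 retinoid X receptor probes and 4 of 4 clock receptor probes lay below 0, as did 4 of 9 probes of constitutive and orphan receptors. Both tested probes of the vitamin and thyroid hormone receptors and both of the steroid receptors also lay below 0, and 1 of 3 of the estrogen-related receptors did.

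After normalization, KO replicates 1 and 2 both lay below all 3 WT arrays at 7 receptor probes (18.4%), against 16.4% of all tested probes, and both lay above at 3 (7.89%), against 12.9%. These shares were near the background of the array. The 7 were those of Ppara, Nr1i2, Rarb and Nr2c1, 2 of Nr1i3 and 1 of Rxrb, and the 3 were those of Nr1h3, Hnf4a and Nr2f2. On deposited signals, which carry the dimness of the array of KO replicate 1, 9 probes were below (23.7%), against 10.1% of all tested probes, and 0 above, against 1.62%, and 5 of the 9 were also among the 7. The 95% interval lay inside -1 to 1 for 31 of the 38 probes and excluded 0 for 5. The interval reached outside for Ppara, Ppard, Rxrg, Nr1d1, Nr2c1, Nr6a1 and 1 Nr5a2 probe. Tested probes near background in WT had little room to fall. For them an interval inside -1 to 1 does not bound a loss of transcript. The Nr3c1 probe was of this kind, with a normalized WT mean of 4.81. Of 8 genes with more than 1 tested probe, 2 (Nr2f6 and Rora) had probes of 1 sign and 6 had both.

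**Figure D4:**
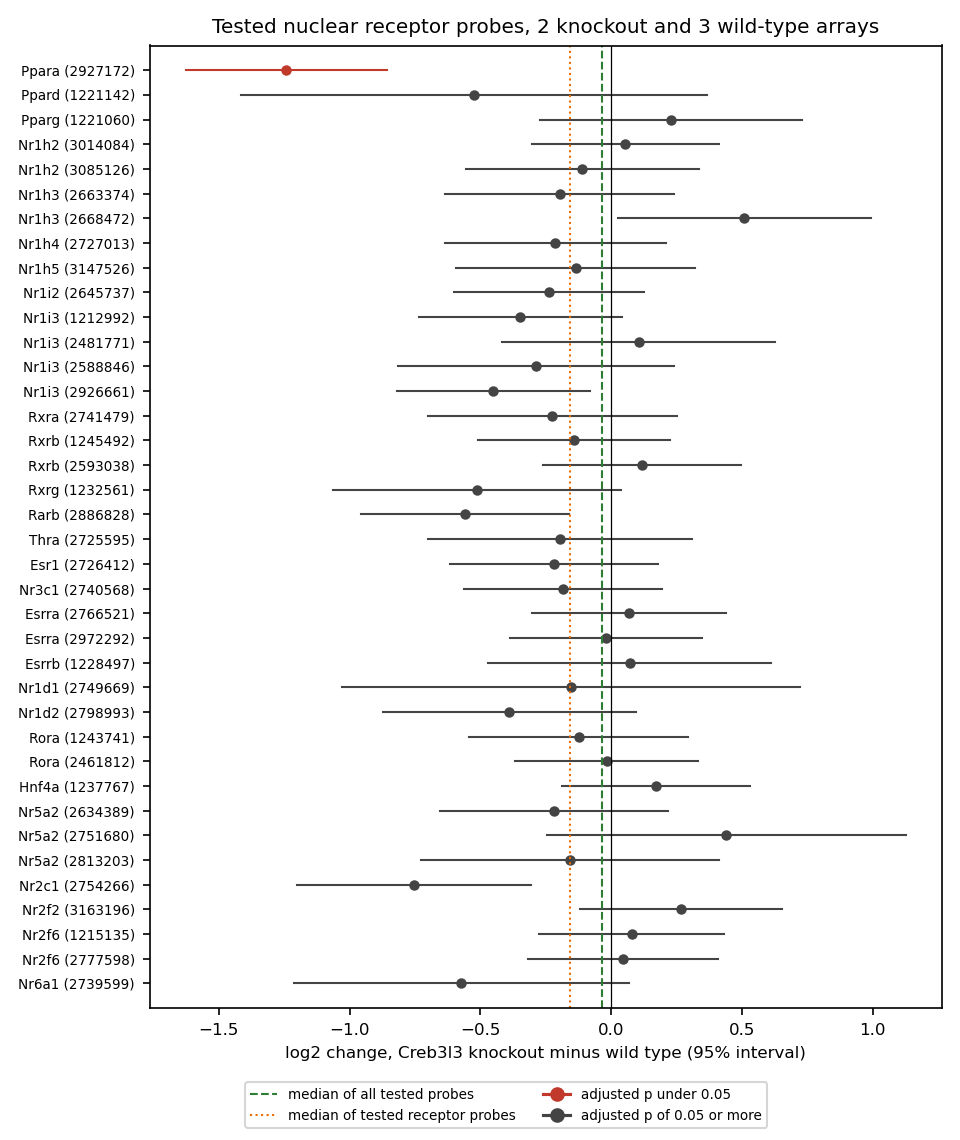
Log2 change, KO minus WT, of the 38 tested receptor probes with 95% intervals, 1 row per probe in the order of the receptors' roles. Ppara, in red, is the only probe with an adjusted p under 0.05, and 33 of the other 37 intervals cross 0. The dashed line is the median of all tested probes, -0.03, and the dotted line that of the receptor probes, -0.16.

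Receptors act through coregulators, and none of these was called. Of 44 coregulator and chaperone genes listed, 42 had a probe and 32 genes with 45 probes were tested. At an unadjusted p under 0.05, 1 was higher (2.22%, beside 4.66% of all tested probes) and 3 were lower (6.67%, beside 7.47%), and the median log2 change was 0.02, beside -0.03 for all. The 1 higher was Pprc1, a PGC-1-related coactivator, with a signal of 112, 159.6 and 82.6 in KO and 119, 127 and 115 in WT and a log2 change of 0.62 ± 0.19 (SE). Those lower included the mediator subunit Med1, at -0.41 and 0.01 at its 2 probes, and the coactivator Ncoa6, at -0.52. Also lower was the corepressor subunit Tbl1xr1, at -0.40 and -0.23 at its 2 probes. In each pair, only the first value had an unadjusted p under 0.05.

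Genes known as targets of the receptors were described from 10 lists with 121 symbols, of which 94 genes with 135 probes were tested. In all, 4 probes of 3 genes were called lower (2.96%, beside 0.279% of all tested probes) and 0 higher (beside 0.0627%). At an unadjusted p under 0.05, 29 were lower (21.5%, beside 7.47%) and 7 higher (5.19%, beside 4.66%), and 87 of 135 lay below 0 (64.4%, beside 54.7%). The lists were chosen with results of these arrays known, and their shares were not tested. Of the 3 genes, 1 is Creb3l3 itself, the gene disrupted in KO, which the PPARA list holds. The others were Fgf21, the fasting hormone of the PPARA list, and Pck1, the gluconeogenic enzyme listed as a target of the glucocorticoid receptor. Pck1 had a signal of 240.4, 922 and 84.9 in KO and 2383, 1884 and 2189 in WT, and changed by -1.73 ± 0.21 (SE) with an adjusted p of 0.0227 there and by -1.12 ± 0.16 (SE) with an adjusted p of 0.0399 at its other probe. Over all 6 arrays these changes were -3.19 ± 1.21 and -2.58 ± 1.20 (SE), both with an adjusted p of 0.653. Without WT replicate 1, 2 of 131 target probes were called, beside 2 higher and 13 lower of all 13309 tested probes. Without WT replicate 2 it was 1 of 130, beside 1 higher and 8 lower of all 13449. Without WT replicate 3 it was 1 of 130, beside 2 higher and 7 lower of all 13471. With all 6 arrays 0 of 135 were called, beside 0 of all 14494.

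The lists differed in how their members lay. Of 34 PPARA target probes, 29 were below 0 with a median of -0.19 and 2 were called, those of Creb3l3 and Fgf21. The Fgf21 probe had a signal of 98.2, 133 and 86.9 in KO and 276, 306 and 346 in WT, and was detected on 1 of the 2 KO arrays tested. Its log2 change was -2.64 ± 0.33 (SE) with an adjusted p of 0.0255, and -2.42 ± 0.34 (SE) with an adjusted p of 0.574 over all 6 arrays. No oxidation enzyme of the list was called. LXR targets lay below 0 at 7 of 8 probes and FXR targets at 6 of 8, with none called. PXR and CAR targets lay mostly the other way, with 7 of 22 probes below 0, a median of 0.23 and none called. In that list, Por, the electron donor of cytochromes P450, was below 0 at 3 probes, at -0.74, -0.79 and -0.73, and the glutathione transferase Gsta1 had a signal of 156, 617 and 87.6 in KO and 270.1, 207 and 192 in WT and a log2 change of 1.13 ± 0.30 (SE) with an adjusted p of 0.245. As deposited, KO replicate 1 was below and KO replicate 2 above all WT arrays at that probe.

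Targets of the clock receptors lay below 0 at 6 of 6 probes from 4 genes, with a median of -0.83 and none called. Cyp7b1, an oxysterol hydroxylase, had a signal of 254, 1085 and 134 in KO and 5623, 1882 and 2392 in WT. KO replicates 1 and 2 were both below all WT livers, as at 10.1% of all tested probes on deposited signals. Those signals carry the dimness of the array of KO replicate 1. The log2 change of Cyp7b1 was -2.02 ± 0.38 (SE), with an adjusted p of 0.115. The fatty acid elongase Elovl3 lay at -1.40 and -1.67 at its probes, also without a call. Arntl lay at -0.26 ± 0.31 (SE) and Clock at -0.08 ± 0.24 and -0.0035 ± 0.22 (SE), so the larger changes of this list were those of Cyp7b1 and Elovl3. Glucocorticoid receptor targets lay below 0 at 6 of 16 probes, and apart from Pck1 none was called. Tsc22d3 (GILZ) lay at 0.65 and 1.10 and Sgk1 at 0.72, while Igfbp1 lay at -1.29. Retinoic acid targets, HNF4A targets, estrogen-related receptor targets and thyroid hormone targets had no called probe, with medians of 0.22, -0.04, -0.08 and -0.21.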

How the data were processed

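Liver RNA of 6 mice was measured on 1 bead array per mouse. Per the file headers, each deposited table gives an average signal per probe, an intensity on a linear scale that was neither normalized nor background-subtracted by its values, and a detection p-value from the authors' software, BeadStudio 3 per the submitters' processing notes. The deposited value table of the series holds linear intensity whose values matched a quantile normalization of the array signals, and in it WT replicates 2 and 3 carry each other's array signals. It served as an alternative only, and no source used here names the authors' own normalization step.

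Sample titles and the genotype label gave the groups. The neqc function of limma 3.58.1 (R 4.3.3) subtracted background by normexp, with control levels taken from the detection p-values and an offset of 16, then quantile-normalized and log2-transformed the signals. The filter asked for a detection p under 0.05 on 3 or more of the arrays used, and kept 14345 probes with 5 arrays and 14494 with 6. The lmFit and eBayes model held genotype alone, tests were two-sided, and Benjamini-Hochberg adjustment ran over all kept probes, with calls at an adjusted p under 0.05. The number of arrays limits the precision. The fit was tested on simulated data. Receptors were matched by the exact symbol of the array tables, which is that of the array's design. The receptors, the coregulator, target and marker lists and the use of 5 arrays were chosen with earlier results of these data known. Named with values were the Ppara probe, each receptor detected on all 3 WT arrays (its probe with the highest mean, others where the sign differs), each receptor probe with an unadjusted p under 0.05, and called or leading genes of the other lists. Over the 6 arrays, the deviations of same-numbered KO and WT mice from their group means correlated at -0.05, -0.05 and 0.04, so replicate numbers were not taken as pairs. Figures were drawn with matplotlib 3.10.9 in Python 3.11.15.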

Additional observations from a re-analysis of the deposited data

How the results depend on the processing

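Of 14345 tested probes, 9 were called higher and 40 lower in the reported fit. These counts ran from 0 and 0 with all 6 arrays to 1030 and 1802 with array weights over all 6, which gave KO replicate 1 87.2% of the KO weight. The array of KO replicate 3 has few detected probes, which limits every value that includes it. All tested probes had a median log2 change of -0.42 under median scaling and -0.28 with all 6 arrays, so signs there are relative to that shift. A single KO array, where left alone, was assumed to vary like the WT arrays. The causes of the differences below were not tested.

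The 1 called receptor probe became 0 with all 6 arrays, with array weights over 5 arrays, under cyclic loess, under median scaling, without background correction, with no filter, in the authors' value table, and in each fit with a replicate block. It became 8 of 38 with array weights over all 6 arrays, 2 higher and 6 lower, beside 1030 higher and 1802 lower of all 14494 tested probes. Leaving out any 1 WT mouse gave 0. Leaving out KO replicate 1 or 2 also moved this count, but it leaves a single KO array, so the count there is not read. The Ppara change was -1.17 to -1.32 when 1 mouse was left out. It lost its call with all 6 arrays (-1.25, adjusted p 0.653), with array weights over 5 arrays (-1.25, adjusted p 0.0536), under cyclic loess (-0.99, adjusted p 0.0504), under median scaling (-1.31, adjusted p 0.776), without background correction (-0.42, adjusted p 0.0675), with no filter (-1.24, adjusted p 0.162) and in the authors' value table (-0.37, adjusted p 0.0826). With a replicate block, Ppara was at -1.22 (adjusted p 0.0870) over 5 arrays, at -1.28 (adjusted p 0.0821) with WT replicates 2 and 3 exchanged, and at -1.25 (adjusted p 0.700) over all 6 arrays, so the block ended its call in each fit. It kept the call at a detection p under 0.01, with 2 detected arrays required, with trended and robust variance, with array weights over all 6 arrays and without KO replicate 2.

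Called coregulator probes, 0 as reported, were 5 of 45 with array weights over all 6 arrays, beside 1030 higher and 1802 lower of all 14494 tested probes. Leaving out any 1 WT mouse left them at 0. Called target probes, 4 as reported, were 0 with all 6 arrays, 40 with array weights over them, 0 under median scaling, 1 with no filter, 0 with a replicate block over all 6 arrays, and 1 to 29 when 1 mouse was left out. Of 687 values of the 37 other receptor probes over 19 alternatives, 57 changed sign without a call, 14 were called in the reported direction and 0 in the opposite one. The count of receptors detected on the WT arrays stayed within 24 to 28.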
